A study of Mus with 6 samples.

Results

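Connexins are the subunits of gap junctions, the channels that join the cytoplasm of neighbouring cells, and pannexin 1 forms a related single-membrane channel that releases ATP. The genes described here are 8 connexins and Panx1, chosen by symbol, and they make up 9 of the 18887 genes in the table. The libraries hold ribosome-bound RNA from RiboTag precipitates, in which ribosomes of a chosen cell type carry an epitope tag by which they are pulled down with their mRNA. The labels give whole mouse brain as the tissue and microglia, the brain's resident immune cells, as the cell type. There were 2 control libraries (genotype Ctr, titled MG_IP) and 4 IRKO libraries (genotype KO), where IRKO is taken to mean insulin receptor knockout, since the series title speaks of lost insulin signalling. Both groups are RiboTag precipitates. The labels name no Cre driver, age, sex or treatment, nor do they say whether each replicate is its own animal; the tests therefore rest on the spread between these libraries, which may be technical.

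In brain tissue different cell types build their junctions from different connexins. Astrocytes form a coupled network with connexin 43 (Gja1) and connexin 30 (Gjb6), and connexin 26 (Gjb2) is found in astrocytes and in the leptomeninges, the membranes that cover the brain. Oligodendrocytes use connexin 32 (Gjb1) and connexin 29 (Gjc3), arterial endothelium connexin 37 (Gja4), vascular smooth muscle and pericytes connexin 45 (Gjc1), and electrical synapses between neurons connexin 36 (Gjd2).

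Each library held 13858978 to 19010680 reads. Insr, the insulin receptor gene, was lower in IRKO (548 ± 23.4 normalized counts, SD, n = 2, against 338 ± 33.5, SD, n = 4; limma adjusted p = 0.00211). Microglial genes were read in every library, where 24 of 24 homeostatic microglia markers were above 0 in all 6, with sums of 110941 and 139658 normalized counts in the controls against 290292 to 409039 in IRKO. RNA of other cell types was present as well. The 20 astrocyte markers had sums of 707812 and 894632 normalized counts in the controls against 56013 to 84617 in IRKO. The 11 red blood cell and liver markers had 79678 and 237535 against 2798 to 12493. Of these, 10 were called lower and Ttr did not pass (limma adjusted p = 0.187). Ttr alone held 3716, 11973 and 6543 normalized counts in IRKO replicates 2 to 4, most of those sums. The controls differed too, with Alb at 360 and 5125 in replicates 1 and 2. In such bulk material fewer cells of a type, less RNA per cell and less carry-over of that type's RNA cannot be told apart.

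Of the 9 genes, Gja1 and Gjb6 fell, Gjc3, Gja4 and Gjd2 rose, and Gjb2, Gjb1, Gjc1 and Panx1 did not pass the test. All 9 passed the filter on low values, at least 10 normalized counts in at least 2 libraries, and all had at least 10 in every library. Calls are at a limma adjusted p under 0.05 over all 14698 genes tested. Of these 55.6% were called, 26.6% higher and 29% lower, so a call in itself does not set a connexin apart from other genes. The counts of each list below stand against the same shares. The IRKO values lay wholly to 1 side of both controls for 5 of the 9 genes (3 higher, 2 lower), against 67.6% of all genes (32.8% higher, 34.8% lower). The directions of the 3 rises hold for the deposited scaling, TMM and quantile normalization. When libraries were scaled to equal homeostatic microglia markers, the median of all genes moved from 0.02 to −1.48 on the log2 scale, none of the 9 rose, and 6 fell (Gja1, Gjb6, Gjb2, Gjb1, Gjc1 and Panx1), where 81.4% of all genes were called.

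**Figure D1:**
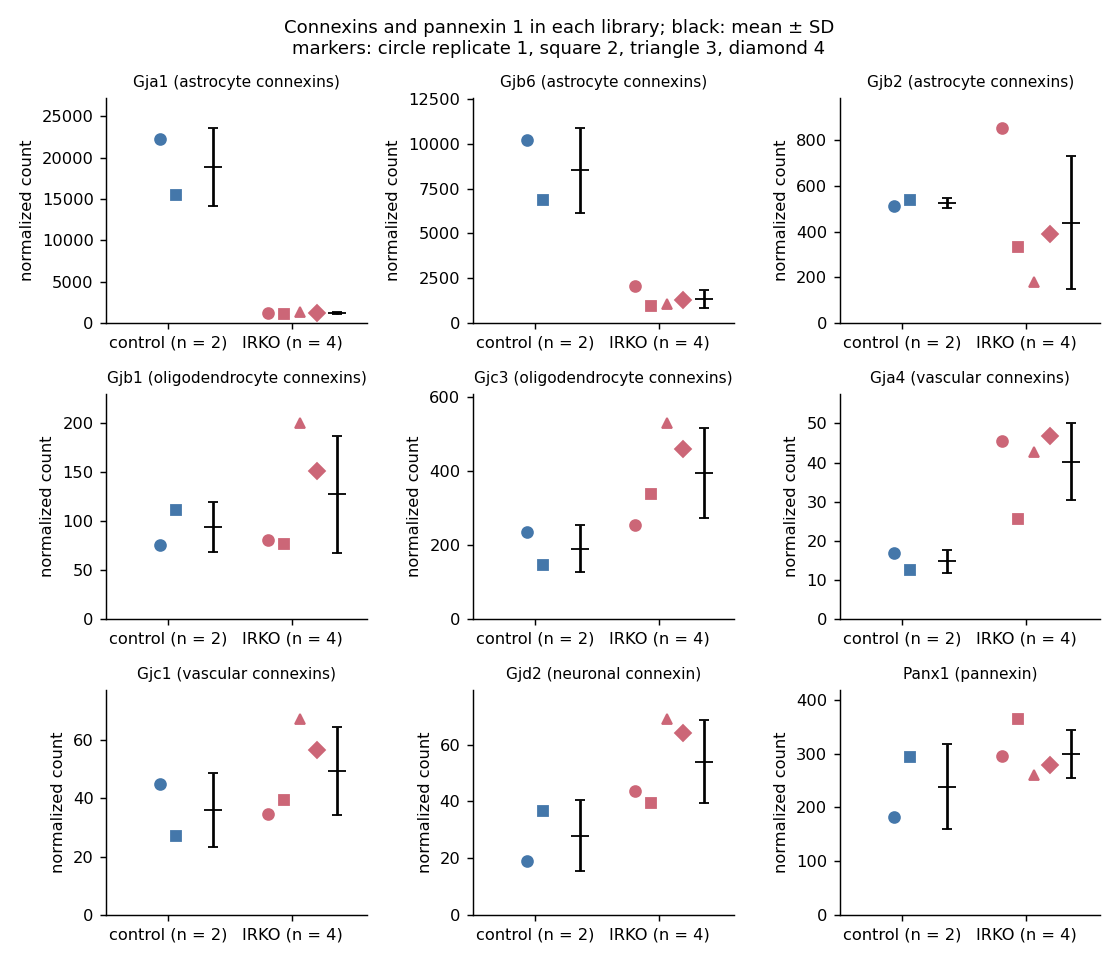
Normalized counts of the 9 genes, 1 panel per gene with its own linear axis from 0. Blue points are the 2 controls and red points the 4 IRKO libraries, with mean ± SD in black. The groups are far apart for Gja1 and Gjb6, whereas the IRKO values of Gjb2 lie on both sides of the controls, from 179 to 855.

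Gja1, the main astrocyte connexin (GRCm38.p6 chromosome 10, 56377300 to 56390419), had the largest change. Its normalized count was 22237 and 15534 in control replicates 1 and 2, and 1171, 1087, 1301 and 1240 in IRKO replicates 1 to 4. Every IRKO library lay more than 10 times below both controls, and the 4 stood close together. The fall was 15.5-fold (log2 change −3.96 ± 0.154, SE; limma adjusted p = 3.06e-07; 95% interval −4.30 to −3.61), and 0.953% of all genes fell further. Leaving out any 1 library gave −4.21 to −3.70. With libraries scaled to the microglia markers the change was −5.46.

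Gjb6, the second astrocyte connexin (chromosome 14, 57123301 to 57133611), fell less. Its normalized count was 10211 and 6847 in the controls and 2092, 954, 1069 and 1304 in IRKO replicates 1 to 4. IRKO replicate 1 was the highest of its group, and still below both controls. The fall was 6.47-fold (−2.69 ± 0.291, SE; limma adjusted p = 7.49e-05; 95% interval −3.35 to −2.04), or −4.20 scaled to the microglia markers. It was −2.93 without IRKO replicate 1.

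Within a library, a difference between 2 genes does not depend on how libraries are scaled. On the log2 scale Gjb6 minus Gja1 was −1.12 and −1.18 in the controls (−1.15 ± 0.0417, SD, n = 2). In IRKO it was 0.84, −0.19, −0.28 and 0.07 in replicates 1 to 4 (0.11 ± 0.508, SD, n = 4). The groups did not overlap, a shift of 1.26. An exact two-sided permutation test gave p = 0.133, the smallest this test can give with 2 against 4 libraries, so it cannot reach 0.05 here (0.213 adjusted over 16 such differences).

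Set against the mean of 20 astrocyte markers in the same library, the groups overlapped for Gja1 and not for Gjb6. Gja1 lay above the markers by 0.40 ± 0.143 (SD, n = 2) in control libraries and by 0.50 ± 0.126 (SD, n = 4) in IRKO ones, a difference within the spread (exact permutation p = 0.533). Gjb6 lay below them in both controls (−0.75 ± 0.184, SD, n = 2) and above them in all 4 IRKO libraries (0.61 ± 0.627, SD, n = 4), by 1.51 in replicate 1 and by 0.09 to 0.53 in the others (exact permutation p = 0.133). All 20 of these markers were called lower, at log2 changes around a median of −4.11, from −5.21 (Acsbg1, an acyl-CoA synthetase) to −2.53 (Gli3, a transcription factor of hedgehog signalling). The changes of Gja1 and Gjb6 both lay inside that span, that of Gjb2 (−0.49) above it.

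Gjb2 (chromosome 14, 57098602 to 57104702), whose end lies 18599 bases from the start of Gjb6, had a different profile from both. Its normalized count was 511 and 540 in the controls and 855, 333, 179 and 388 in IRKO replicates 1 to 4. IRKO replicate 1 was above both controls and the other 3 below them, a range of IRKO values from 179 to 855. The log2 change of −0.49 ± 0.473 (SE) did not pass limma's test (adjusted p = 0.406; 95% interval −1.55 to 0.58). Without IRKO replicate 1 it was −0.88 and passed (limma adjusted p = 0.0302). It also passed on recovered reads without that library, with edgeR (−0.78, adjusted p = 0.0464) and DESeq2 (−0.80, adjusted p = 0.0183). On recovered reads of all libraries it did not pass with edgeR (−0.25, adjusted p = 0.675) or DESeq2 (−0.26, adjusted p = 0.768). Without IRKO replicate 3 it was −0.13 and did not pass (limma adjusted p = 0.778). Scaled to the microglia markers it was −1.99 and passed (limma adjusted p = 6.83e-06). In the same library, Gjb2 minus Gja1 was −5.44 and −4.84 in the controls and −2.86 to −0.45 in IRKO, and Gjb2 minus Gjb6 was −4.32 and −3.66 against −2.57 to −1.29 (log2; exact permutation p = 0.133 for each). The annotated long noncoding RNA Gm32912 overlaps only a short stretch of Gjb2, from 57104665 to its high-coordinate end at 57104702. With the strandedness of the counting unknown here, reads of that stretch cannot be assigned.

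The genes nearest to Gjb2 in profile over the 6 libraries, by root mean square distance of centred log2 values, were Bmp7 (0.147), Fgfbp1 (0.149) and Sp5 (0.231). Bmp7, a bone morphogenetic protein, stood at 976 and 1081 normalized counts in control libraries and at 1415, 503, 306 and 760 in IRKO replicates 1 to 4. Markers of meningeal and perivascular fibroblasts differed from Gjb2 in level and partly shared its order among the IRKO libraries. Relative to their mean in the same library, Gjb2 was at 1.75 and 1.72 (log2) in the controls. In IRKO replicates 1 to 4 it was lower, at 0.14, 0.01, −1.23 and −0.40, with no overlap (exact permutation p = 0.133). Of 12 such markers 8 rose, none fell and 4 did not pass as deposited, at a median of 1.69 (0.02 over all genes), and 3 rose and 3 fell in the microglia scaling, at a median of 0.19. One of the 8, Slc47a1, passed the filter on low values in IRKO libraries only, and without it 7 of 11 rose. The 12 had summed normalized counts of 4843 and 5970 for the controls against 8386 to 20140 for IRKO. The extremes were Crabp2, a retinoic acid binding protein (0.41 ± 0.631, SE; limma adjusted p = 0.606), and Col1a1, a fibrillar collagen (3.08 ± 0.423). Of the 12, Slc6a13, Aldh1a2, Igf2, Foxc1 and Lum, singled out after their values were seen, ran in the order of Gjb2, highest in IRKO replicate 1, then 4, 2 and 3. The other 7 ran in other orders, with Col1a1, Col1a2, Col3a1 and Pdgfra highest in replicate 3, Slc47a1 in replicate 4, and Dcn and Crabp2 in replicate 1. The share of all genes that run in the order of Gjb2 is not given here, so the count among these markers cannot be judged against it. Igf2, an insulin-like growth factor made by the meninges and choroid plexus, had 10086 normalized counts in IRKO replicate 1, 3733, 2778 and 5833 in replicates 2 to 4, and 2575 and 3754 in the controls. In IRKO replicate 1 Gjb6 and Gjb2 were both the highest of their group. Whether meningeal RNA has a part in the values of Gjb2 was not tested.

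**Figure D2:**
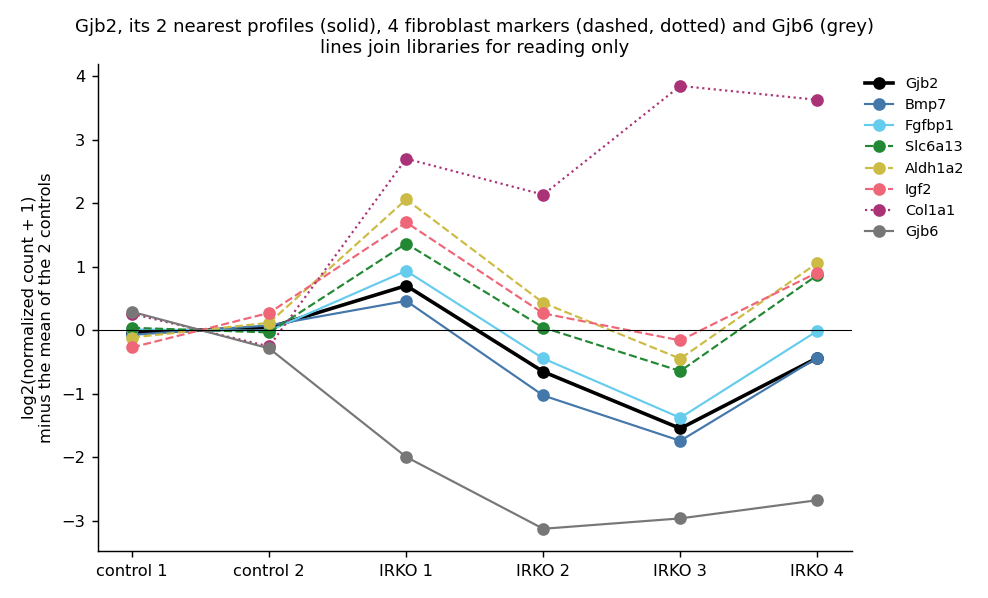
Log2 of normalized count + 1, minus the mean of both controls, for Gjb2 and 7 other genes in each of the 6 libraries. Gjb2 has its peak in IRKO replicate 1 and its lowest point in replicate 3. Bmp7 and Fgfbp1 run close to it because they were picked as its nearest profiles over these same libraries. Of the fibroblast markers drawn, Slc6a13, Aldh1a2 and Igf2 share the order of Gjb2 among IRKO libraries. Col1a1, highest in replicate 3, is the only one drawn of the 7 that do not. Gjb6 is below 0 in all 4 IRKO libraries.

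Gjc3 (chromosome 5, 137950992 to 137963098), a connexin of myelinating glia, rose. Its normalized count was 236 and 145 in the controls and 255, 339, 529 and 460 in IRKO replicates 1 to 4. All IRKO values were above both controls, but replicate 1 only just. The rise was 2.05-fold (1.04 ± 0.298, SE; limma adjusted p = 0.0155; 95% interval 0.36 to 1.71), and −0.47 when scaled to the microglia markers. Leaving out control replicate 2 gave 0.69 and no call (limma adjusted p = 0.140).

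Gjb1 (chromosome X, 101376376 to 101385629), an oligodendrocyte connexin, did not pass the test. Its normalized count was 75.4 and 111 in the controls and 80.2, 76.9, 199 and 151 in IRKO replicates 1 to 4. Replicates 1 and 2 lay between the controls and replicates 3 and 4 above both. The log2 change was 0.35 ± 0.388 (SE; limma adjusted p = 0.470; 95% interval −0.53 to 1.22), and −1.15 scaled to the microglia markers.

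IRKO replicates 3 and 4 were the highest libraries for both of these genes, and also for the mean of 20 oligodendrocyte markers (10.2 and 9.78 on the log2 scale, against 8.84 to 9.47 in the other 4 libraries). The same libraries were highest for Gjc1, Gjd2, Panx2 and Gjd3, described below, so this trait is not particular to oligodendrocyte genes. Of those markers 11 rose, 2 fell and 7 did not pass, with a median of 0.86 as deposited and −0.64 in the microglia scaling, from −0.89 (Cnp) to 1.23 (Mog, a myelin surface protein). Relative to the marker mean of its own library, Gjc3 was at −1.47 ± 0.255 (SD, n = 2) in control and −1.10 ± 0.152 (SD, n = 4) in IRKO libraries, and Gjb1 was at −2.47 ± 0.632 and −2.80 ± 0.329. Both pairs of groups overlapped (exact permutation p = 0.267 and 0.400). The nearest profile to Gjc3 was that of Tmem125, at a distance of 0.0477, with 69.7 and 44.5 normalized counts in the controls and 74.3, 94.6, 159 and 131 in IRKO replicates 1 to 4.

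Gja4 (chromosome 4, 127311420 to 127314039), the arterial endothelial connexin, showed the largest rise of the 9 genes. It had 16.9 and 12.6 normalized counts in the controls and 45.6, 25.6, 42.7 and 46.8 in IRKO replicates 1 to 4, from 13 to 48 reads per library. All IRKO values were above both controls, with replicate 2 the lowest. The rise was 2.57-fold (1.36 ± 0.345, SE; limma adjusted p = 0.00851; 95% interval 0.59 to 2.14), on a scale of log2(value + 1) that understates changes of low genes. It was −0.08 scaled to the microglia markers, and the call was lost without control replicate 2 (1.17, limma adjusted p = 0.0572). At these read numbers counting error is a large part of each value.

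In IRKO replicates 1, 3 and 4, but not clearly in replicate 2, Gja4 was also higher relative to endothelial markers. Against the mean of 15 such markers it was −2.22 and −2.09 in the controls, −1.26, −1.37 and −1.24 in IRKO replicates 1, 3 and 4, and −2.09 in replicate 2, which equalled control replicate 2 to that precision (exact permutation p = 0.133). Of the endothelial markers 8 rose, 1 fell and 6 did not pass, with a median of 0.72 as deposited and −0.69 in the microglia scaling, from −1.40 (Slc2a1, the glucose transporter of the blood-brain barrier, also made by glia) to 1.59 (Pecam1, an adhesion molecule).

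Gjc1 (chromosome 11, 102799477 to 102819686), a connexin of mural cells and some neurons, did not pass. It had 45.0 and 27.1 normalized counts in the controls and 34.7, 39.4, 67.0 and 56.5 in IRKO replicates 1 to 4, from 28 to 69 reads. Replicates 1 and 2 lay between the controls, replicates 3 and 4 above both. The log2 change was 0.44 ± 0.345 (SE; limma adjusted p = 0.303; 95% interval −0.34 to 1.22), and −1.03 scaled to the microglia markers. Of 11 tested mural cell markers 5 rose, 2 fell and 4 did not pass, with a median of 0.76 as deposited and −0.75 in the microglia scaling. Kcnj8 and Abcc9, both among the 5, passed the filter on low values in IRKO libraries only. Of the 11, 3 rose and 1 fell without control replicate 1, and 2 rose and 2 fell without control replicate 2. Without Kcnj8 and Abcc9 3 of 9 rose and 2 fell, from −2.78 (Notch3, a receptor of mural cells) to 1.37 (Anpep, an aminopeptidase of pericytes), with a median of 0.55. Relative to their mean Gjc1 was at −1.26 ± 0.309 (SD, n = 2) in control and −1.18 ± 0.522 (SD, n = 4) in IRKO libraries (exact permutation p = 0.800). Gja4 minus Gjc1 was −1.36 and −1.05 in the controls and 0.38, −0.60, −0.64 and −0.27 in IRKO replicates 1 to 4, with no overlap (exact permutation p = 0.133).

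Gjd2 (chromosome 2, 114009601 to 114014378), the connexin of neuronal electrical synapses, rose near the threshold. It had 19.1 and 36.8 normalized counts in the controls and 43.6, 39.4, 69.0 and 64.3 in IRKO replicates 1 to 4, from 17 to 71 reads. All IRKO values were above both controls, although the gap between control replicate 2 and IRKO replicate 2 was small. The rise was 1.94-fold (0.96 ± 0.354, SE; limma adjusted p = 0.0440; 95% interval 0.16 to 1.76), and −0.51 scaled to the microglia markers. The call was lost with edgeR (adjusted p = 0.0632) and DESeq2 (adjusted p = 0.0607) on recovered reads, with no filter on low values (limma adjusted p = 0.0616) or a filter at 50 (0.0563), and without control replicate 1 (0.50, limma adjusted p = 0.333), IRKO replicate 3 (0.83, limma adjusted p = 0.0951) or IRKO replicate 4 (0.86, limma adjusted p = 0.0976). The annotation places the long noncoding RNA A530058N18Rik over the high-coordinate end of Gjd2, and reads shared with it cannot be told apart.

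Neuronal transcripts as a group were higher too: of 20 neuron markers 16 rose, none fell and 4 did not pass, with a median of 0.85 as deposited and −0.66 in the microglia scaling, from −0.03 (Map2) to 1.74 (Slc17a6, a vesicular glutamate transporter). Relative to the mean of these markers Gjd2 was at −5.94 ± 0.467 (SD, n = 2) in control and −5.86 ± 0.418 (SD, n = 4) in IRKO libraries, with overlapping groups (exact permutation p = 0.933).

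Panx1 (chromosome 9, 15005785 to 15045478), the ATP-releasing channel found in neurons, glia and immune cells, did not pass. Its normalized count was 182 and 294 in the controls and 295, 364, 260 and 279 in IRKO replicates 1 to 4. All 4 IRKO values were above control replicate 1, and 2 of them were above control replicate 2. The log2 change was 0.36 ± 0.212 (SE; limma adjusted p = 0.178; 95% interval −0.12 to 0.84). It was 0.01 without control replicate 1, and 0.70 with a call without control replicate 2 (limma adjusted p = 0.0287). Scaled to the microglia markers it fell by 1.14 (limma adjusted p = 0.000447).

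Relative to 24 homeostatic microglia markers in the same library, Panx1 was lower in IRKO: −4.13 and −3.17 in the controls and −5.01 to −4.62 in IRKO. This is nearly the same quantity as the change of −1.14 in the microglia scaling. The median of all genes there was −1.48, further down than Panx1, so the drop is not particular to Panx1. Relative to neuron markers Panx1 was −3.08 and −2.64 in the controls and −3.75 to −3.16 in IRKO. Neither pair of groups overlapped, and each exact permutation test gave p = 0.133, the smallest possible. Of the microglia markers 23 rose and 1 fell, with a median of 1.66, from −1.19 (Mertk, a receptor for apoptotic cells that astrocytes also express) to 2.10 (Itgam, an integrin of the complement receptor).

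Nearest in profile to Gja1 over the 6 libraries were Entpd2, an ectonucleotidase (distance 0.0730), Sparcl1, a matricellular protein (0.0856), and Prodh, proline dehydrogenase (0.0879), and nearest to Gjb6 were Fzd2, a Wnt receptor (0.136), Pcdhga8, a protocadherin whose gene overlaps others of its cluster (0.139), and Erbb2, a receptor tyrosine kinase (0.143). Entpd2 had 2746 and 1690 normalized counts in the controls and 124, 124, 139 and 139 in IRKO replicates 1 to 4. Fzd2 had 2281 and 1511 in the controls and 373, 210, 209 and 236 in IRKO, with replicate 1 the highest of its group as for Gjb6. For Panx1 the nearest was Mmrn2 (0.0586), an endothelial matrix protein at 7.87 to 15.8 normalized counts.

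**Figure D3:**
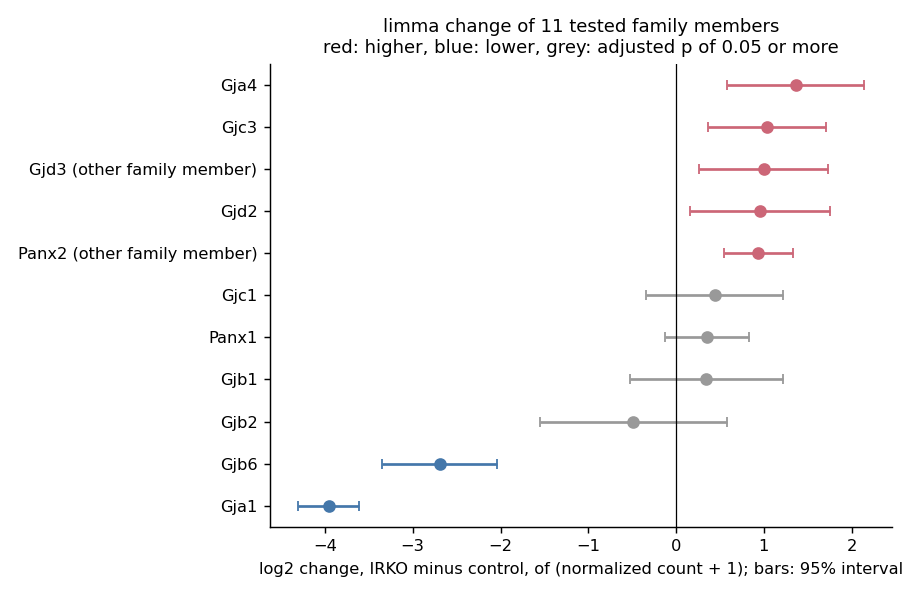
Log2 change (IRKO minus control) with its 95% interval for the 9 genes, Panx2 and Gjd3. Gja1 and Gjb6 lie to the left of 0 with intervals that do not meet, 5 genes lie to the right near 1, and 4 intervals include 0.

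Of the other connexins and pannexins listed, 13 had a row and 3 passed the filter on low values, all of which rose as deposited. Panx2, a pannexin of neurons, had 921 and 1062 normalized counts in the controls and 1494, 1758, 2321 and 2109 in IRKO (0.94 ± 0.175, SE; limma adjusted p = 0.00175). Gjd3, with 16.5 to 48.6 normalized counts over the 6 libraries, changed by 1.00 ± 0.324 (SE; limma adjusted p = 0.0264), a call lost without either control (limma adjusted p = 0.0767 and 0.105) and without IRKO replicate 3 or 4 (limma adjusted p = 0.0590 and 0.0559). Scaled to the microglia markers Panx2 stood at −0.57 (limma adjusted p = 0.0488) and Gjd3 at −0.45 (limma adjusted p = 0.346). The other 10 stayed below 6 normalized counts in every library.

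The balance of connexin and pannexin reads within a library differed between the groups. Reads are counted per gene and not per length, so shares describe reads, not molecules or channels. Gja1 took 64.3% and 62.9% of the reads of all 22 genes in the controls and 17.9% to 20.8% in IRKO. Gjb6 took 29.5% and 27.7% in the controls and 31.9%, 18.2%, 16.8% and 20.6% in IRKO replicates 1 to 4, so that replicate 1 lay above the controls. Gja1, Gjb6 and Gjb2 together made up 94.0% ± 1.77 (SD, n = 2) of control and 48.6% ± 9.87 (SD, n = 4) of IRKO reads. Gjb1 and Gjc3 together made up 0.970% ± 0.0975 and 8.53% ± 2.69, and Panx1 with Panx2 4.34% ± 1.63 and 36.5% ± 6.28. The summed normalized count of the 22 genes was 34596 and 24708 in the controls and 5238 to 6552 in IRKO. A share also rises when this sum is smaller. Gjb1 and Panx1 took larger shares in IRKO, although their own log2 changes of 0.35 and 0.36 were not called.

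**Figure D4:**
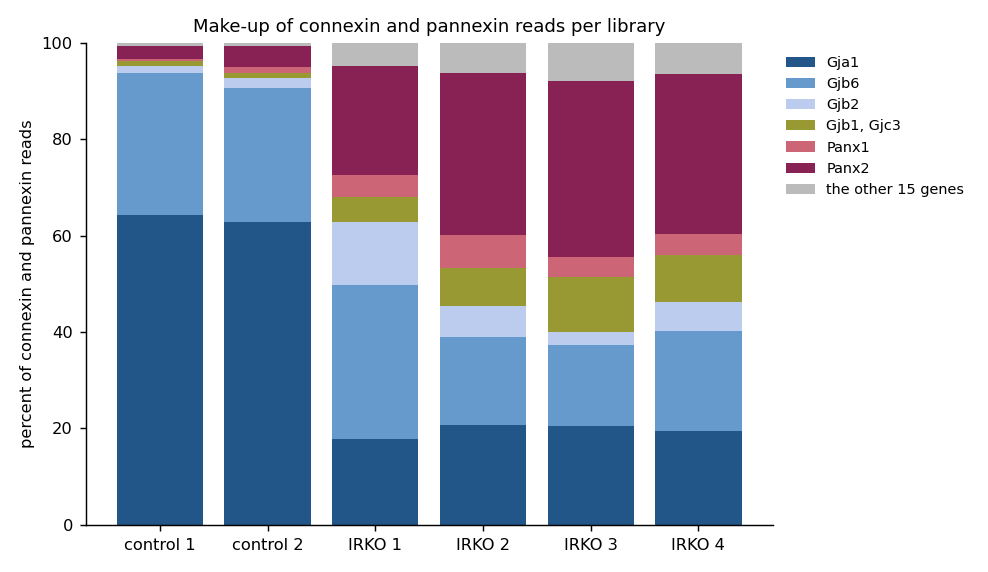
Share of connexin and pannexin reads by gene in each library, as stacked bars in percent. Gja1 takes at least 62.9% of reads in both controls and at most 20.8% in every IRKO library, and Panx2 reaches 22.8% to 36.5% in IRKO.

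Other large-pore channels were mixed. Of 7 tested 4 rose, 2 fell and 1 did not pass, with a median of 0.82, against 0.02 over all genes. Over all genes 26.6% rose and 29% fell. Lrrc8a, the essential subunit of the volume-regulated anion channel, fell 3.51-fold (1963 ± 424, SD, n = 2, against 555 ± 62.1, SD, n = 4). Lrrc8c, a partner subunit, changed by −0.89 ± 0.228 (SE), but was no longer called once control replicate 1 was left out (−0.40, limma adjusted p = 0.0797). Lrrc8b, another partner, rose 1.77-fold as deposited and stood at −0.68 scaled to the microglia markers. The calcium homeostasis modulators Calhm2 (1.13 ± 0.197), Calhm5 (1.06 ± 0.318) and Calhm6 (1.51 ± 0.415) rose as deposited and stood at −0.37, −0.42 and 0.05 in that scaling. Without control replicate 1 the calls of Calhm5 and Calhm6 were lost (limma adjusted p = 0.0560 and 0.0726), and without control replicate 2 that of Calhm5 (limma adjusted p = 0.0870).

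Among 20 junction scaffolds and connexin regulators 5 fell, 4 rose and 11 did not pass, with a median of 0.06. Over all genes 29% fell and 26.6% rose. Tjp1, a zonula occludens scaffold that binds the tail of connexin 43, did not pass (0.12 ± 0.142, SE; limma adjusted p = 0.477). Src, a kinase that phosphorylates connexin 43, fell 2.42-fold, Cdh2, N-cadherin, 2.35-fold and Nedd4, a ubiquitin ligase of connexin 43, 1.84-fold. Ccn3, a matricellular protein that binds connexin 43, rose 2.90-fold, Prkce, a protein kinase C, 2.41-fold and Akap5, a kinase anchor, 1.73-fold. In the microglia scaling these 3 rises stood at 0.03, −0.24 and −0.71.

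Of 11 ATP signalling partners of pannexin 1, 4 rose, 2 fell and 5 did not pass, with a median of 0.25, and without control replicate 1, where P2ry2 was not tested, none was called lower. Among all genes tested 26.6% rose and 29% fell, so these counts do not set the list apart. P2ry12, a microglial ADP receptor, rose 3.44-fold, Entpd1, which breaks down extracellular ATP, 2.68-fold and P2rx7, an ATP-gated channel, 2.55-fold. In the microglia scaling they stood at 0.27, −0.08 and −0.15. P2ry12 is itself among the markers that set that scaling, so its value there is partly fixed by construction. Nt5e, which makes adenosine, changed by 0.94 ± 0.356 (SE; limma adjusted p = 0.0489), a call lost with edgeR (adjusted p = 0.0775) and at 0.39 without control replicate 1 (limma adjusted p = 0.413). Adora1, an adenosine receptor, fell 1.39-fold as deposited and not under quantile normalization (−0.19, limma adjusted p = 0.275) or without control replicate 1 (−0.36, limma adjusted p = 0.122). P2ry2, a nucleotide receptor counted among the 2, passed the filter on low values in the controls only (28.1 and 14.5 normalized counts, against 4.86 to 8.87 in IRKO). Without it 1 of 10 fell and the median was 0.34.

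**Figure D5:**
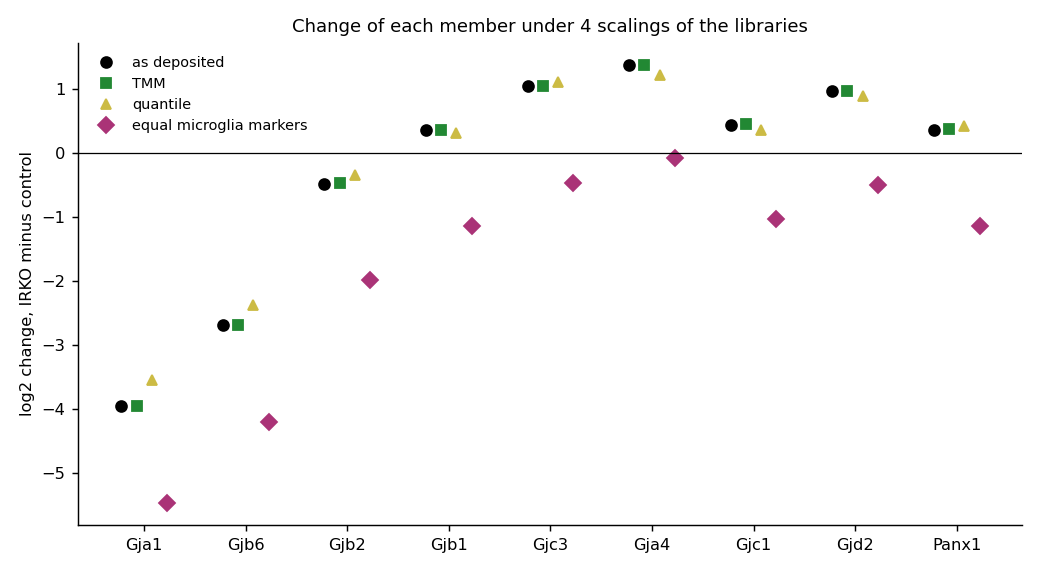
Log2 change of each of the 9 genes under 4 scalings of the libraries. The deposited values, TMM and quantile normalization lie close together, and scaling to equal microglia markers lowers every gene, so that Gja4 comes to −0.08 and the order Gja1, Gjb6, Gjb2 from the bottom is kept.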

How the data were processed

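The authors deposited a signal per gene and sample, named normalized counts in the file; per the submitters' processing notes Bowtie2 and GRCm38.p6 were used, and no source used here names the counter, annotation, strandedness or normalization. In each library 100% of values were whole multiples, within 0.05 reads, of the smallest value above 0, which recovered 13858978 to 19010680 reads. In IRKO replicate 1 a read is worth 0.991, too near 1 for a step test, so edgeR and DESeq2 were also run without it.

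Values were transformed as log2(value + 1), and genes with at least 10 in at least 2 samples were fitted with limma 3.58.1 (R 4.3.3, mean-variance trend, two-sided, Benjamini-Hochberg over 14698 genes, threshold 0.05). edgeR 4.0.16 and DESeq2 1.42.0 were run on recovered reads, with 8068 and 7993 genes called against 8173 with limma. Within-library differences used log2(value + 1), a mean over tested markers and exact permutation tests. Coordinates come from a RefSeq table of GRCm38.p6 that matched 18665 symbols and gives genomic spans only, so levels per transcript length, which the design named, were not computed. Members, lists and tests were chosen with earlier results of these data known. In each pathway list the genes of smallest p among those called were named, at most 4 for the direction with more calls and 3 for the opposite one, and in marker lists the extremes; a few list genes are counted but not reported here by name. For each of the 9 genes the 3 nearest profiles were found, and those of 3 genes, with the nearest of Gjc3 and Panx1, are given. Alternatives were TMM, quantile and microglia marker scaling, a filter at 50 or none, pseudocounts of 0.5 and 5, no variance trend, a replicate block, and each library left out, where a lone control is assumed to vary like the IRKO libraries. Read shares were added after the data were seen.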

Additional observations from a re-analysis of the deposited data

Results flagged for a closer look

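For the 4 IRKO libraries the gap of the highest or lowest value to its neighbour was compared with the group's range for 34 quantities, at the 95% limit of Dixon's test. Chance alone passes it in about 1 in 20 such groups, and 2 of the 34 passed. Gja4 relative to the endothelial markers was −2.09 in IRKO replicate 2, far below the other 3 IRKO libraries (−1.37 to −1.24). Panx1's share of connexin and pannexin reads was 6.94% in IRKO replicate 2, against 4.09% to 4.51% in the other 3.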

How the results depend on the processing

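The falls of Gja1 and Gjb6 kept their direction and call in every alternative run. The 3 rises among the 9 genes became 1 with the filter at 50, where Gja4 was not tested, 0 when scaled to the microglia markers and 1 with the replicate block, and 2 to 3 with a library left out. Falls numbered 6 in the microglia scaling and 2 to 3 with a library left out. That scaling called 56 genes higher and 11913 lower, against 3911 and 4262 as deposited, since it lowers all genes by construction. It turned Gjb1 (−1.15), Gjc3 (−0.47), Gja4 (−0.0791), Gjc1 (−1.03), Gjd2 (−0.51) and Panx1 (−1.14), and the medians of other connexins and pannexins (−0.49), large-pore channels (−0.68), junction genes (−1.44), ATP signalling genes (−1.25), oligodendrocyte (−0.64), precursor (−1.35), neuron (−0.66), endothelial (−0.69), mural (−0.75) and border macrophage markers (−0.95).

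List counts in that scaling were 0 higher and 1 lower for other connexins and pannexins, 0 and 4 for large-pore channels, 0 and 17 for junction genes, and 0 and 7 for ATP signalling genes. Quantile normalization gave 7 rises among junction genes and 1 fall among ATP signalling genes. With a library left out, rises numbered 1 to 3 for other connexins and pannexins (1 without control replicate 2) and 2 to 4 for large-pore channels (2 without control replicate 1), whose falls numbered 1 to 2, and falls among ATP signalling genes 0 to 2 (0 without control replicate 1).

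Replicate numbers are shared by the groups without any label of pairing, so the numbers were not taken as pairs. Same-numbered samples' deviations correlated at −0.08 and 0.08. These values cannot decide on pairing, since the deviations of the controls from their mean mirror each other. The replicate block compares IRKO libraries only with the control of the same number. IRKO replicates 3 and 4 have no such control, so they do not enter its estimates. With the block Gjb2 stood at 0.0232 and Gjb1 at −0.22. Gjc3 (0.66, limma adjusted p = 0.106) and Gjd2 (0.62, limma adjusted p = 0.228) lost their calls in this smaller comparison.

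Within-library differences that changed sign were small: Gjd2 minus neuron markers (−0.0107 with a pseudocount of 5, −0.25 to 0.41 with a library left out), Gja1 minus astrocyte markers (−0.00509 to 0.20), Gjb1 minus oligodendrocyte markers (−0.77 to 0.13, the higher without control replicate 2) and Gjc1 minus mural markers (−0.14 to 0.30; −0.12 without IRKO replicate 3), and Gjd2 was −0.07 without IRKO replicate 4. Depth limits Gja4, Gjc1 and Gjd2, at 13 to 71 reads per library. The causes of these changes were not tested.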
